A study of Homo sapiens with 16 samples.

Results

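The peaks described here are those that γ-tubulin chromatin immunoprecipitation placed on the control region of mitochondrial DNA (mtDNA) and on the 2 mitochondrial rRNA genes, MT-RNR1 and MT-RNR2. A listed peak was a member when it overlapped, by at least 1 bp, MT-RNR1 (positions 648 to 1601), MT-RNR2 (1671 to 3229) or the control region (16024 to 16569 continuing at 1 to 576). The rule uses positions and no peak height, and 15 of the 29 mtDNA peaks met them, out of 2962 peaks in all. The 3 regions together hold 3635 of the 16569 bp of mtDNA (21.9%). Positions are given on chromosome M in hg19, the build in the submitters' processing notes, with the mitochondrial sequence of Ensembl that the authors added to it, and are counted from 1.

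mtDNA is a small circular molecule present in many copies per cell. Its control region holds no gene. It carries the promoters of both strands, the origin from which the heavy strand is copied, 3 conserved sequence blocks near that origin, and, at the other end, the termination-associated sequence, where many newly started heavy strands stop. The short strand left between these ends, called 7S DNA, forms the displacement loop. MT-RNR1 and MT-RNR2 encode the 12S and 16S rRNAs of the mitochondrial ribosome and lie directly downstream of the heavy-strand promoter, separated from it and from each other by tRNA genes: MT-TF stands before MT-RNR1, MT-TV between the rRNA genes and MT-TL1 after MT-RNR2. γ-Tubulin is best known for nucleating microtubules at the centrosome.

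The cells were MCF10A, an established line of human breast epithelium, and γTubulinsh-MCF10A, a population of the same line that stably carried a γ-tubulin shRNA under Zeocin selection. The labels name no transfection for the MCF10A libraries, so a control shRNA was not part of the comparison. All cells were synchronized by a double thymidine block and harvested 1 h or 2 h after release, and γ-tubulin was precipitated from sonicated nuclei with a mixture of antibodies. Each of the 4 conditions had 2 ChIP libraries and 2 whole cell extract libraries as controls, but the authors deposited 1 peak list per condition that pools both ChIP libraries. Values below therefore carry no replicate error, differences between lists were not tested, and numbers of bases or peaks are set side by side. The level of γ-tubulin itself cannot be read from peak lists, so the knockdown was not checked here.

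The 15 members were unevenly divided among the conditions. MCF10A cells had no member at 1 h and 8 at 2 h, and γTubulinsh-MCF10A cells had 3 at 1 h and 4 at 2 h. These stood among 0, 16, 8 and 5 mtDNA peaks and among 1035, 1547, 296 and 84 listed peaks in all, so at 2 h γTubulinsh-MCF10A cells had fewer members than MCF10A cells, but members made up more of their list. In the 2 h MCF10A list the members covered 2683 bp of the 3 regions, or 73.8%, where the background was 63.9% of all mtDNA bases under a peak. The members of γTubulinsh-MCF10A cells covered 949 bp at 1 h, or 26.1% against a background of 13% (2146 of 16569 bp), and 468 bp at 2 h, or 12.9% against 5.04%. In the 1 h MCF10A list, 0% of mtDNA lay under a peak. Outside the 3 regions the shares were 61.1% in the 2 h MCF10A list, and 9.25% and then 2.84% in the γTubulinsh-MCF10A lists. Taken as a sum, the 3 regions had a higher share than the rest of mtDNA in each of these lists, but this did not hold for each region. MT-RNR1 was below the rest in all 3 lists, at 54.5%, 8.81% and 0% in the same order, and MT-RNR2, at 85.4%, 0% and 8.60%, was below it in the second. In that list the control region gave 865 of the 949 bp.

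**Figure D1:**
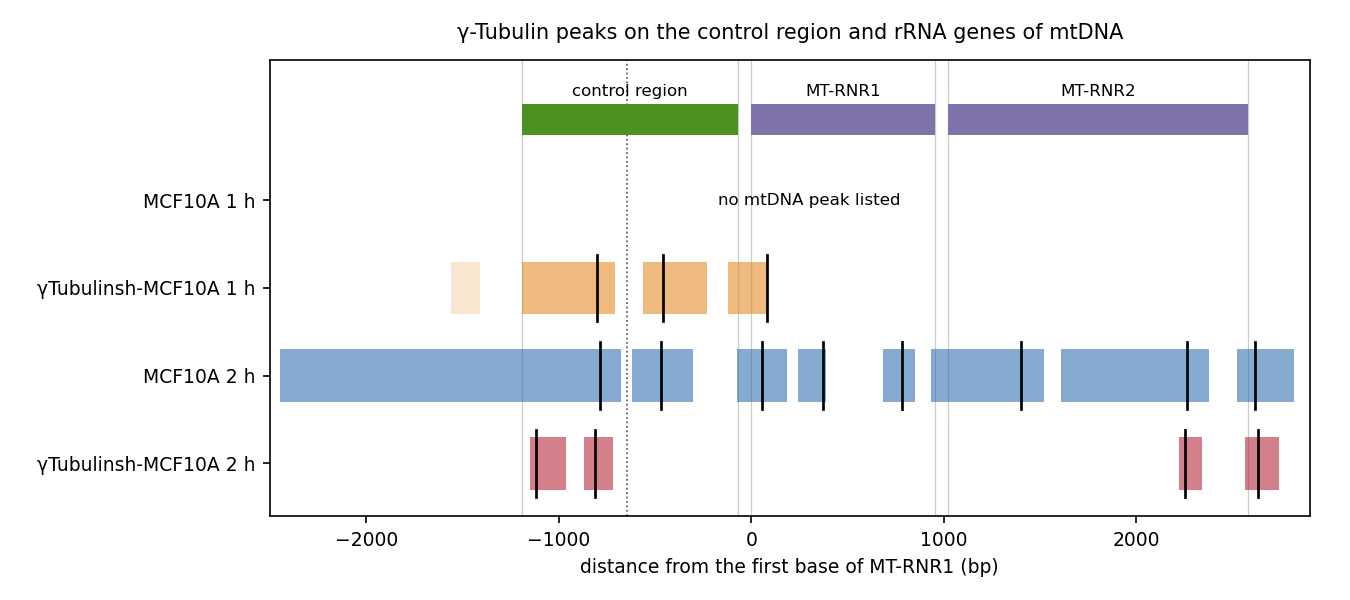
Listed peaks (coloured bars) and their summits (black ticks) by distance from the first base of MT-RNR1, in bp, 1 row per condition. Pale bars are mtDNA peaks outside the 3 regions, and the dotted line is the join where position 16569 meets position 1; the row of MCF10A cells 1 h after release has no bar, and the 2 h MCF10A list has 8 members spread over the control region and both rRNA genes.

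Of the 539 bp of mtDNA that were under peaks in all 3 lists with mtDNA peaks, 334 bp lay in the control region and the other 205 bp in complex I genes. The control region makes up 6.77% of mtDNA, and held 7.86% of the mtDNA bases under peaks in the 2 h MCF10A list but 40.3% and 40.0% of those in the γTubulinsh-MCF10A lists at 1 h and at 2 h. Of its 1122 bp, 865 (77.1%) were under peaks in the 1 h γTubulinsh-MCF10A list, 832 (74.2%) in the 2 h MCF10A list and 334 (29.8%) in the 2 h γTubulinsh-MCF10A list. The first and second of these lists thus covered nearly the same number of bases, and 742 bp were covered in both, which is 85.8% of the γTubulinsh-MCF10A bases and 89.2% of the MCF10A bases. All 334 bp of the γTubulinsh-MCF10A list at 2 h were also covered in each of the other 2 lists with mtDNA peaks.

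The end of the control region next to MT-TP, the proline tRNA gene, carries the termination-associated sequence and was covered in all 3 of these lists. In the 2 h MCF10A list a peak from 14771 to 16540 ran 1770 bp from the cytochrome b gene through MT-TT and MT-TP into the control region, with 517 bp inside it. Its summit at 16431 lay in the control region, and its fold enrichment of 2.32 and −log10 q-value of 24.4 ranked first among the 16 mtDNA peaks of that list. In the 1 h γTubulinsh-MCF10A list a peak from 16024 to 16507 began at the first base of the control region and had its summit at 16418, where the fold enrichment was 1.78 and the −log10 q-value, second of 8, was 8.88. By 2 h these cells had 2 shorter peaks in the same place, from 16068 to 16252 (summit 16101, fold enrichment 1.55, −log10 q-value 4.04) and from 16348 to 16496 (summit 16407, 1.59 and 4.79). The control region summit with the highest −log10 q-value therefore fell at 16431, 16418 and 16407 in the 3 lists, within a span of 25 bp that lies inside the 7S DNA stretch.

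The termination-associated sequence itself, 16 bp long, was wholly under a peak in these 3 lists but held no summit. The nearest summit was that at 16101 in the 2 h γTubulinsh-MCF10A list, 56 bp before it in the direction of MT-TP. Of the 655 bp of 7S DNA, 597 (91.1%) were under peaks in the 2 h MCF10A list, 507 (77.4%) in the 1 h γTubulinsh-MCF10A list and 296 (45.2%) at 2 h. The positions of these elements are textbook ones in the revised Cambridge numbering and were not read from the files.

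The other end of the control region, with the heavy-strand origin and the promoters, was covered in 2 lists and bare in the third. A peak from 30 to 342 in the 2 h MCF10A list (fold enrichment 1.64, −log10 q-value 7.86) and a peak from 87 to 419 in the 1 h γTubulinsh-MCF10A list (1.57 and 4.54) had their summits at 179 and 187, a distance of 8 bp. In the 2 h γTubulinsh-MCF10A list none of the bases from 1 to 576 was under a peak. The heavy-strand origin, taken as 332 bp, was covered over 233 bp (70.2%) in the 2 h MCF10A list and over 310 bp (93.4%) in the 1 h γTubulinsh-MCF10A list, and it held the summit of both peaks. Conserved sequence blocks CSB1 and CSB2 were wholly under these peaks, and CSB1 began 34 bp and 26 bp after the summits.

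The lists differed at the promoters in where their peaks ended. The 2 h MCF10A list had no peak over the 232 bp from 343 to 574, so CSB3, the light-strand promoter and heavy-strand promoter 1 were all outside peaks there. The 1 h γTubulinsh-MCF10A list had a gap of 109 bp, from 420 to 528, and peaks over all of CSB3, over 28 of the 54 bp of the light-strand promoter, and over all 23 bp of heavy-strand promoter 1. These differences rest on few bases at peak ends. CSB3 began 167 bp after the MCF10A summit at 179, just past the end of that peak at 342. Heavy-strand promoter 1 began 366 bp after the same summit and ended shortly before the next MCF10A peak, which began at 575. In the 1 h γTubulinsh-MCF10A list it lay under the weakest mtDNA peak, from 529 to 731 (−log10 q-value 1.48, 8th of 8). Neither promoter held a summit in any list. Around the join of the numbering, 58 bp from 16541 to 29 were under no peak in any list. The lists number mtDNA as a linear sequence, so no listed peak can span this join.

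MT-RNR1, the 12S rRNA gene, was covered mainly in the 2 h MCF10A list, where 520 of its 954 bp (54.5%) lay under 4 peaks. This share is below the 63.9% of mtDNA as a whole, and it placed MT-RNR1 23rd of the 37 mtDNA genes by share under peaks in that list. The peak from 575 to 831 reached 2 bp into the control region, covered MT-TF whole and took in the first 184 bp of MT-RNR1, with its summit at 705. Next came a peak from 890 to 1034 with its summit at 1019 and a peak from 1330 to 1499 with its summit at 1432. The last 21 bp of the gene belonged to a peak that continues into MT-RNR2. The longest bare stretch ran 295 bp, from 1035 to 1329.

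The 5′ part of MT-RNR1 was also under a peak in the 1 h γTubulinsh-MCF10A list, from 529 to 731, which covered heavy-strand promoter 1, MT-TF and the first 84 bp of the gene (8.81% of it). Its summit at 729 was 24 bp from that of the MCF10A peak at 2 h. Both were the weakest mtDNA peaks of their lists. The fold enrichment was 1.36 and the −log10 q-value 1.77 in MCF10A cells (16th of 16), and 1.39 and 1.48 in γTubulinsh-MCF10A cells (8th of 8). The 2 peaks wholly inside MT-RNR1 in the 2 h MCF10A list had fold enrichments of 1.41 and 1.58 and −log10 q-values of 2.43 and 6.26, which ranked 15th and 13th, and the peak continuing into MT-RNR2 ranked 6th. At 2 h, γTubulinsh-MCF10A cells had no peak on MT-RNR1.

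MT-RNR2, the 16S rRNA gene, had the highest share of the 3 regions in the 2 h MCF10A list, with 1331 of 1559 bp (85.4%) under 3 peaks, and ranked 17th of the 37 mtDNA genes. Of the 13 genes that were wholly under peaks in that list, 11 were tRNA genes, which are short. The peak from 1581 to 2170 covered MT-TV whole and the first 500 bp of MT-RNR2, with its summit at 2050, enriched 1.75 times at a −log10 q-value of 10.0. A peak from 2256 to 3026 lay wholly inside the gene (771 bp, summit 2911, fold enrichment 1.71, −log10 q-value 8.96). The bare stretches were short, 85 bp from 2171 to 2255 and 143 bp from 3027 to 3169. No base of MT-RNR2 was under a peak in the 1 h γTubulinsh-MCF10A list.

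In the 2 h γTubulinsh-MCF10A list, 134 bp of MT-RNR2 (8.60%) were under 2 peaks, both near its 3′ end. The first, from 2872 to 2990, had its summit at 2899, 12 bp from the summit of the MCF10A peak at 2 h around it. Its fold enrichment was 1.50 and its −log10 q-value 2.79. The second, from 3215 to 3391, had only its first 15 bp in the gene.

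That second peak and its MCF10A counterpart at 2 h, from 3170 to 3466 with 60 bp in MT-RNR2, were centred beyond the rRNA gene. Their summits at 3282 and 3267, 15 bp apart, both lay in MT-TL1, a leucine tRNA gene whose DNA carries the binding site of the transcription termination factor MTERF1. They lay 53 bp and 38 bp past the last base of MT-RNR2. The fold enrichment was 1.52 in γTubulinsh-MCF10A and 1.94 in MCF10A cells, and the −log10 q-values were 2.78 and 13.2. These were the only members whose summit fell outside the 3 regions, so 13 of 15 members had a summit inside them: 6 in the control region, 4 in MT-RNR1 and 3 in MT-RNR2.

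**Figure D2:**
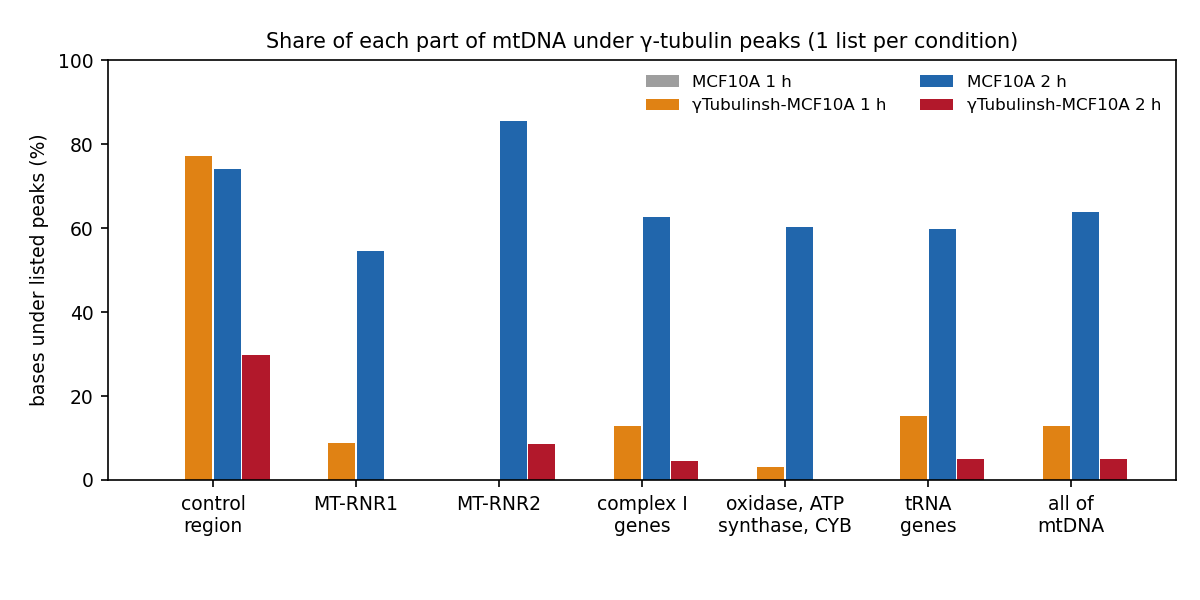
Percentage of bases under listed peaks in each part of mtDNA, 1 bar per list, with no error bars because there is 1 list per condition. The control region stands at 77.1%, 74.2% and 29.8% in the 1 h γTubulinsh-MCF10A, 2 h MCF10A and 2 h γTubulinsh-MCF10A lists, MT-RNR2 at 85.4% in the 2 h MCF10A list, and the 1 h MCF10A list has no bar.

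Set beside the protein genes of mtDNA, the control region differed from them most in γTubulinsh-MCF10A cells. The 7 complex I genes, which encode subunits of NADH dehydrogenase, were under peaks over 12.9% of their bases in these cells at 1 h and 4.57% at 2 h, and over 62.6% in the 2 h MCF10A list. The 6 genes of cytochrome oxidase, ATP synthase and cytochrome b were covered over 3.04%, 0% and 60.2% in the same order. Of the 13 protein genes, 4 were touched by a peak in the 1 h γTubulinsh-MCF10A list, 2 at 2 h, and 10 in the 2 h MCF10A list. Among the 22 tRNA genes the numbers touched were 5, 1 and 14. The 5 in the 1 h γTubulinsh-MCF10A list included MT-TF, and the 1 at 2 h was MT-TL1.

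Where member peaks of different lists overlapped, their summits mostly coincided. Of the 9 overlapping pairs, 7 had summits within 25 bp of each other, with a median distance of 15 bp. The exceptions were the pairs with the γTubulinsh-MCF10A peak from 16068 to 16252 at 2 h, whose summit was 317 bp and 330 bp from the single summit listed for the longer peak around it. Of the 6 overlapping pairs that included an mtDNA peak outside the 3 regions, 1 had summits within 25 bp, with a median distance of 344 bp. That pair had its summits at the same base, 13965, in both lists at 2 h. The longest of these distances, 496, 709 and 748 bp, also ran to the single summit of a longer peak. The peaks were 198, 223 and 152 bp long, inside MCF10A peaks of 1184, 1327 and 1770 bp. Among members, peaks of 149 and 119 bp inside MCF10A peaks of 1770 and 771 bp had summits 24 bp and 12 bp away. Neighbouring summits within the MCF10A list at 2 h were 762 bp apart at the median. Each peak has only 1 listed summit, the pairs share peaks, and no test was made of these distances.

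**Figure D3:**
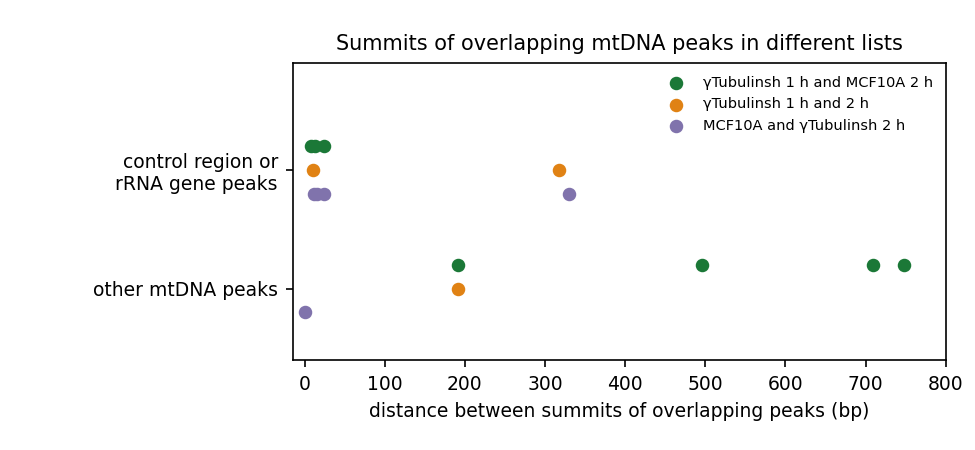
Distance in bp between the summits of overlapping mtDNA peaks in 2 lists, 1 point per pair, coloured by the lists compared. Of the 9 pairs of control region and rRNA gene peaks, 7 lie within 25 bp, and of the 6 pairs that include another mtDNA peak, 1 does.

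The heights of the members bear on how these folds can be read. MACS2, the peak caller, gives a fold enrichment (the ChIP pileup plus 1 over the control background plus 1) and a p-value, from which the number of ChIP reads over each summit and the control background were recovered. At the 15 member summits the pileup lay between 202 and 236 reads. By default MACS2 counts reads with the same start and strand once, so that a pileup cannot exceed 2 times the fragment length. With the shortest peak of each list standing for the fragment length, that ceiling is 240 reads in the 2 h MCF10A list, and 212 and 230 in the γTubulinsh-MCF10A lists at 1 h and at 2 h. The highest pileup of any peak in these lists, nuclear ones included, was 240, 211 and 227 reads. The members stood at 87.1% to 99.5% of the ceiling, with a median of 97.6%, and the 14 other mtDNA peaks at 77.8% to 98.1%, with a median of 94.0%.

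With the pileup near one value, the fold enrichments of the members followed the control in the 2 h MCF10A and 1 h γTubulinsh-MCF10A lists. This order follows from the formula of the fold, since the background was itself solved from the fold and the p-value. It is therefore no separate evidence about the control. In the 2 h MCF10A list the pileup of the 8 members differed by at most 1.13 times, their control background by 1.71 times, from 101 to 173 reads, and their fold enrichment also by 1.71 times. The peak at the 5′ end of MT-RNR1 had the highest control background and the lowest fold, and the control region peak with its summit at 16431 had the lowest background and the highest fold. In the 1 h γTubulinsh-MCF10A list the same 2 places stood at the ends of the range of the 3 members, with control backgrounds of 151 and 118 reads and an equal pileup of 211 reads. The 2 h γTubulinsh-MCF10A list did not show this order. There the pileup of the 4 members differed by 1.12 times and their control background by 1.10 times. The lowest background, 125 reads at summit 3282, had a fold of 1.52. The highest, 138 reads at summit 16101, had a fold of 1.55. The control background at the 15 summits was 59.7 to 118 times the lowest background of the list, so the whole cell extracts held many reads from these places as well. How far a limit on the pileup shaped the folds was not tested.

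**Figure D4:**
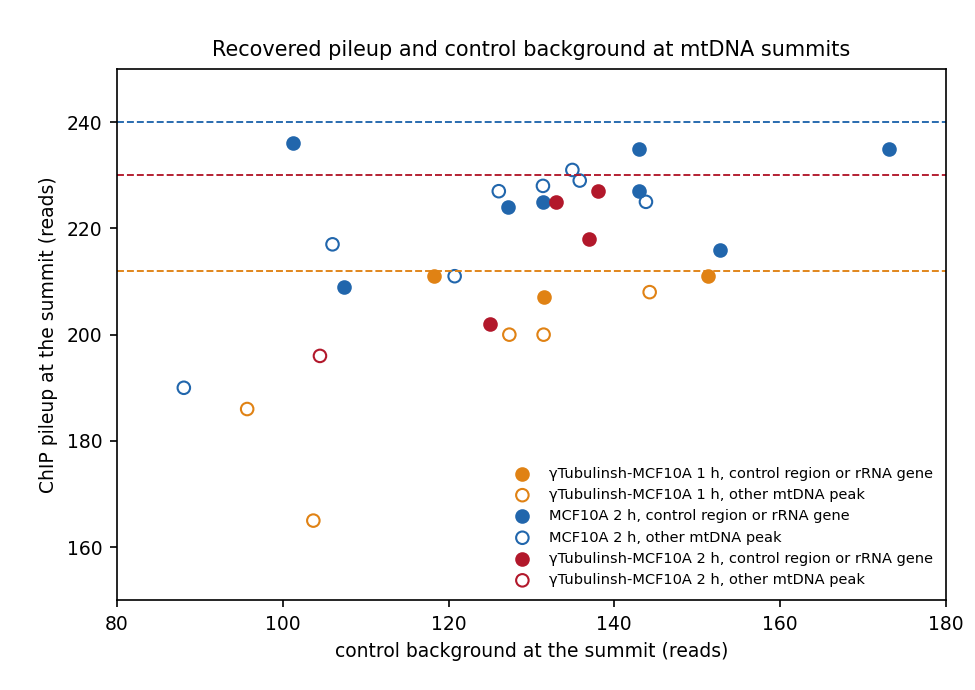
ChIP pileup (whole reads) against control background (reads) at each mtDNA summit, filled for control region and rRNA gene peaks and open for other mtDNA peaks; dashed lines mark 2 times the shortest peak of each list (240, 212 and 230 reads). Filled points lie at 202 to 236 reads over control backgrounds of 101 to 173 reads; for the 2 h γTubulinsh-MCF10A list the pileup was divided by the list's scale of 0.943 to give whole reads.

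Compared with nuclear peaks of their own list, the members had low folds, whereas their scores, which follow the −log10 q-value, stood differently in each list. In the 2 h MCF10A list, 0.0653% to 13% of the 1531 nuclear peaks had a lower fold enrichment than a member, with a median of 1.96%, whereas 0.849% to 93.1% had a lower score, with a median of 43.7%. In γTubulinsh-MCF10A cells, 0% to 18.1% of nuclear peaks at 1 h and 0% to 1.27% at 2 h had a lower fold than a member. A lower score was held by 1.04% to 74.3% of nuclear peaks at 1 h and by 6.33% to 27.8% at 2 h. The other mtDNA peaks had low folds too, so this was not particular to the members. The median share of nuclear peaks with a lower fold was 2.71% for other mtDNA peaks in the 2 h MCF10A list. In the 1 h γTubulinsh-MCF10A list it was 7.64% for members and for other mtDNA peaks. For the 1 other mtDNA peak of the 2 h γTubulinsh-MCF10A list the share was 3.80%. For the 1 h MCF10A list the pileup and control on mtDNA are unknown, since nothing was listed there. Under the same formulas and the smallest −log10 p-value of that list, 5.16, a pileup at its ceiling of 220 reads would have been listed only over a control background below 162 reads.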

How the data were processed

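γ-Tubulin ChIP-seq was done with 8 ChIP and 8 whole cell extract libraries in 4 conditions. The authors mapped reads from the Ion Proton with Bowtie 1.0.0, keeping reads with 1 position, to hg19 with the Ensembl mitochondrial genome, and called peaks with MACS2 2.1.1; bedtools 2.17.0 is in the submitters' processing notes too. The authors deposited 1 list per condition with peak bounds, a summit offset, a score (equal in 100% of peaks to the whole part of 10 times the −log10 q-value), a fold enrichment, which is a ratio, a −log10 p-value and a −log10 q-value. The methods name a differential tool and regions of at least 200 bp, but peaks as short as 106 bp are listed, with the columns of calls against a control.

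From the bounds and summits, bases under peaks were counted once per list. The pileup and control background were solved from the fold and the p-value, taken as the Poisson chance of more reads than the pileup. The pileup was within 0.02 of a whole number in 100% of peaks, after a scale of 0.943 in the γTubulinsh-MCF10A list at 2 h. The procedure was tested on simulated data. The simulated control backgrounds did not reach the highest ones recovered at members, which were 151, 153 and 173 reads. The steps of this recovery assume MACS2 defaults. Read totals are not in the lists, so depth is unknown. Genes other than the rRNA genes were placed by the MT sequence of the RefSeq table of GRCh38.p14, whose rRNA gene bounds equal those used here. The named peaks are all 15 members. The regions, lists of genes and alternatives were chosen with earlier results of these data known. The software was scipy 1.17.1, pandas 2.3.3 and numpy 2.4.6 under Python 3.11.15, with matplotlib 3.10.9 for plots. The mitochondrial sequence was not used here.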

Additional observations from a re-analysis of the deposited data

Results flagged for a closer look

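Between 1 h and 2 h the bases under peaks changed in opposite directions in MCF10A and γTubulinsh-MCF10A cells. Over the 3 regions together, MCF10A cells gained 2683 bp and the count of γTubulinsh-MCF10A cells fell by 481 bp, from 949 to 468. In the control region MCF10A cells gained 832 bp while the γTubulinsh-MCF10A count fell by 531 bp, and in MT-RNR1 the changes were 520 bp and −84 bp. MT-RNR2 was the exception, with 1331 bp and 134 bp more at 2 h. The same directions held over all mtDNA, from 0 to 10591 bp in MCF10A cells and from 2146 to 835 bp in γTubulinsh-MCF10A cells, and outside the 3 regions the latter went from 1197 to 367 bp. Nuclear peaks, counted as peaks and not as bases, moved the same way. They went from 1035 to 1531 in MCF10A cells and from 288 to 79 in γTubulinsh-MCF10A cells. The opposite directions were therefore not particular to the 3 regions or to mtDNA. On mtDNA, the fall in γTubulinsh-MCF10A cells did not hold for every measure. Their member peaks went from 3 to 4, their summits in the regions stayed at 3, and bases within 50 bp of a summit went from 255 to 263. Members of at least 200 bp went from 3 to 0, however. The median member score went from 45 to 33.5, and mtDNA peaks in all from 8 to 5. Each condition has 1 list, so the difference was not tested.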

How the results depend on the processing

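No paired analysis was possible because both ChIP libraries of a condition were pooled into its list, and for the same reason no replicate was left out. Sets of 4 values give MCF10A before γTubulinsh-MCF10A cells at 1 h and then at 2 h, for member peaks, bases of the 3 regions under peaks and summits inside them, and they were 0, 3, 8 and 4 peaks, 0, 949, 2683 and 468 bp, and 0, 3, 7 and 3 summits as reported. Scores at or above the pooled median of 85 left 0, 1, 4 and 0 peaks, 0, 484, 1869 and 0 bp, and 0, 1, 3 and 0 summits. Scores at or above the pooled 75th percentile of 132 left 0, 0, 1 and 0 peaks, 0, 0, 517 and 0 bp, and 0, 0, 1 and 0 summits. A minimum length of 200 bp left 0, 3, 6 and 0 peaks, 0, 949, 2368 and 0 bp, and 0, 3, 5 and 0 summits, and one of 400 bp left 0, 1, 3 and 0 peaks, 0, 484, 1809 and 0 bp, and 0, 1, 3 and 0 summits. Each of these filters can only lower a value. Joining peaks up to 1000 bp apart gave 0, 2, 2 and 2 peaks and 0, 1058, 3577 and 787 bp, so MCF10A cells no longer had more peaks than the 2 h γTubulinsh-MCF10A list. Counting only bases within 50 bp of a summit gave 0, 255, 685 and 263 bp, which put γTubulinsh-MCF10A cells slightly higher at 2 h than at 1 h. Moving the bounds by 2 bp, the size of shift to the older mitochondrial sequence of hg19, gave 0, 947, 2683 and 470 bp and changed no number of peaks or summits. Counting peaks with at least 50% of their length inside gave 0, 3, 6 and 3. The 1 h MCF10A list were at 0 in every setting, and the bases under peaks at 2 h were higher in MCF10A cells in all 8 settings that give bases. The unknown depth and single list per condition limit every difference between lists.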
